A study of Mus musculus with 12 samples.

Results

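Ribosome biogenesis was followed here through 44 genes: the transcription factor gene Myc and genes of the nucleolus, listed by symbol for their part in RNA polymerase I transcription or in ribosomal RNA modification and processing. All 44 symbols were rows of a count table of 37141 genes, and 43 of them were among the 10780 genes with enough counts to be tested. RNA came from hepatocytes sorted from mouse livers, and the study asked how loss of Yap and Taz bears on liver regeneration after acute injury. Yap1 and Wwtr1, the gene of Taz, encode coactivators that the Hippo pathway restrains.

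The 12 libraries formed 4 groups of 3: injured knockouts (Yap/Taz KO + CCl4), uninjured knockouts (Yap/Taz KO), injured controls (ctrl + CCl4) and uninjured controls (ctrl). Mice of every group carried Yapflox/flox; Tazflox/flox, so the controls bore the floxed alleles too. Deletion in the knockouts was by an AAV8 vector (5e11 genome copies, tail vein) whose Cre is under the TBG promoter, active in hepatocytes, so other liver cells keep intact alleles. The labels set the vector 3 weeks ahead of the toxin. Injury was 1 ml/kg of carbon tetrachloride (CCl4) in corn oil, injected 48 h before collection. The labels name no control vector for the controls and no oil injection for uninjured mice, and each contrast therefore includes any effect of vector or injection. Nor do they say whether the samples of a group came from separate animals, so a p-value here reflects sample-to-sample spread that could be technical.

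Ribosomes are assembled in the nucleolus, where RNA polymerase I transcribes a long precursor that carries all but the smallest of the ribosomal RNAs. Small nucleolar ribonucleoproteins (snoRNPs) guide its modification, box C/D particles for ribose methylation and box H/ACA particles for pseudouridine, while a succession of assembly factors, helicases and GTPases cuts, folds and exports the small and the large subunit. MYC is a known activator of many of these genes, and hepatocytes enlarge their nucleoli when they re-enter the cell cycle after tissue loss.

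Each library drew on 500000 sorted cells and held between 1617761 counts (ctrl replicate 3) and 3028951 counts (ctrl + CCl4 replicate 2). Levels are given as CPM, counts relative to the library size after TMM scaling in edgeR, and changes as log2 fold changes with their standard error (SE). Such changes are relative to the bulk of genes: scaling by library totals moved the median of all genes up by 0.37 in the injury response of knockouts and by 0.365 in that of controls. Yap1, the check of the targeted genes, stood at 14.8, 14.2 and 14.4 CPM in injured knockouts, against 53.5, 50.6 and 65.7 CPM in injured controls, and at 22.2, 9.65 and 14.9 CPM in uninjured knockouts, against 40.3, 61.9 and 71.8 CPM in uninjured controls. Both ranges were apart, although the changes of -1.96 ± 0.30 (injured) and -1.89 ± 0.31 (uninjured) had Benjamini-Hochberg adjusted p of 0.0995 and 0.102 in edgeR's quasi-likelihood test. Wwtr1 stood at 25.3, 19.9 and 24.8 CPM in injured knockouts, against 33.7, 32.6 and 34.8 CPM in injured controls, and at 15.7, 10.1 and 18.3 CPM in uninjured knockouts, against 57.6, 24.2 and 34.8 CPM in uninjured controls, also without overlap. Its changes of -0.53 ± 0.31 and -1.40 ± 0.33 had adjusted p of 0.983 and 0.235 in the same test.

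Among uninjured controls, replicate 1 stood apart by the markers of other liver cells: its mean log2 CPM over macrophage, endothelial and stellate markers was 6.62, against 4.19 and 4.77 in replicates 2 and 3. The label of the sort was matched by abundant hepatocyte transcripts, with 10 of 10 hepatocyte markers tested. Their summed level ranged from 80851 to 100932 CPM in injured and from 130501 to 158661 CPM in uninjured knockouts, and from 57874 to 77483 CPM in injured and from 111970 to 149768 CPM in uninjured controls. Of the 10, 3 fell in the injury response of knockouts (7 by DESeq2) and 8 in that of controls (8 by DESeq2). Macrophage and Kupffer markers moved the other way, with 4 and 3 of 12 risen in knockouts and controls. Their summed level ranged from 2019 to 3050 CPM in injured and from 239 to 1151 CPM in uninjured knockouts, and from 2502 to 4388 CPM in injured and from 516 to 2795 CPM in uninjured controls. Of 11 stellate markers, 6 rose in knockouts and 4 in controls, and of 10 endothelial markers 0 passed in either response by edgeR or DESeq2, with 0 at an unadjusted p under 0.05. Of 7 monocyte and neutrophil markers tested, 7 rose in knockouts and 4 in controls, while Ly6g was at 0 in all 12 libraries. Replicate 1 of the uninjured controls also held most of the erythroid transcripts, with 1250 CPM over that list, against 17.6 to 121 CPM in the other 11 libraries. For the part of these shifts in the changes described next, the score of the other liver cells was added to the model, and those values stand beside the results they alter. The score itself was 6.575, 6.273 and 6.216 in injured knockouts, all above the 5.376, 3.953 and 5.11 of uninjured ones. In injured controls it was 6.408, 6.227 and 6.631, against 6.622, 4.193 and 4.767 in uninjured ones. Fits with this score therefore cannot separate a shift in cell mixture from the response to injury. The part of the erythroid and monocyte transcripts was not tested. Fewer cells of a type and less RNA per cell cannot be told apart in such bulk samples.

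The promoters of 4 members that changed are shown. Nop58 rose in both injury responses, Nolc1 and Ddx21 rose in injured controls and hold the variant E-box, and Imp3 was the member that fell. The window of Ncl, which also rose in injured controls, is not shown and holds neither the variant nor the canonical E-box. Each window runs from 250 bases before the RefSeq start of the gene to 50 bases after it, read 5′ to 3′ on the strand of the gene in GRCm38.p6. The windows are chr1:59684756-59685055 on the plus strand for Nop58, chr19:46075597-46075896 on the plus strand for Nolc1, chr10:62602249-62602548 on the minus strand for Ddx21 and chr9:56937250-56937549 on the plus strand for Imp3. Capitals mark CACGCG, a variant of the E-box that MYC binds, or its reverse complement CGCGTG.
Nop58: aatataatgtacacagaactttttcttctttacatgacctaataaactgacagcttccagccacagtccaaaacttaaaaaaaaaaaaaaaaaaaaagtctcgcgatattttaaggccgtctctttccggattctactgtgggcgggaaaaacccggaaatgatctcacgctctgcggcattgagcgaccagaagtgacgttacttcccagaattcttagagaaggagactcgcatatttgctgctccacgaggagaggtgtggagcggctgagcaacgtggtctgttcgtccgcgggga
Nolc1: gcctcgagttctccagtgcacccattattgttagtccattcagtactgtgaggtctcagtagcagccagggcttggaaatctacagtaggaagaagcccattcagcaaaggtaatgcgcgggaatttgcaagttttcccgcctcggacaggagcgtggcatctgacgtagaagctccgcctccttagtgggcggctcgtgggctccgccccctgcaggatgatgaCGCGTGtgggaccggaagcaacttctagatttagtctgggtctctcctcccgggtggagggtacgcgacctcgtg
Ddx21: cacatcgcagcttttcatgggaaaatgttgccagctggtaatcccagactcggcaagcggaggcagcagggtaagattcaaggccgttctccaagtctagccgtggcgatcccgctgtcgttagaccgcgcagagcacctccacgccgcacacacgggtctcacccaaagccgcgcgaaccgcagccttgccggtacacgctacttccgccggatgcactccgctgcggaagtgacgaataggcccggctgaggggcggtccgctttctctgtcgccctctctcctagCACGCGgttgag
Imp3: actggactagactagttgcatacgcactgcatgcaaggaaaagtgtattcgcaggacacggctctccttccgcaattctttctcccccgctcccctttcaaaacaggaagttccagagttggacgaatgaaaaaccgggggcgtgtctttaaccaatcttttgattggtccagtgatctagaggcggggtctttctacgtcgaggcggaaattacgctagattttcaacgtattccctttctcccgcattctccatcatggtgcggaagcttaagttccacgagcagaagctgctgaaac

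The RefSeq windows were matched by symbol for 36 of the 44 members, without Fbl, Rrs1, Npm1, Bop1, Dcaf13, Gnl2, Rrp12 and Myc. The canonical E-box CACGTG, sought on both strands, was found for 7 of the 36 members (19.4%), against 11.8% of 8588 tested genes with a window. A gene was counted if any of its windows held the motif. Of all 32851 windows, each counted singly, 7.15% held it, a share per window that is not comparable with shares of genes. The variant CACGCG was found for 11 members (30.6%), against 20% of tested genes. Of the 9 members with a window that changed in an injury response, 0 held CACGTG and 3 held CACGCG, namely Nolc1, Ddx21 and Nhp2. The ETS core CCGGAAG was found for 30.6% of these members, against 20.6% of tested genes, and the GC box GGGCGG for 75%, against 68.6%. TATAAA was found for 5.56% of these members, against 9.32% of tested genes, and the NRF1 palindrome for 0 of the 36, against 2.35%. These 6 motifs and the 4 windows were picked with the changes of the genes already known, and a match of letters describes the sequence, not a bound site.

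A small group of nucleolar genes was higher in control hepatocytes after CCl4, and genes of the nucleolar scaffold made up most of it. In injured against uninjured controls, 7 of the 43 tested members rose and 1 fell at an adjusted p under 0.05 (edgeR, Benjamini-Hochberg), that is 16.3% and 2.33% of them, where 10.5% of all tested genes rose and 12% fell, 22.5% in all. The other 35 members did not pass in either direction. Whether the share of members that rose exceeds that of all genes was not tested. Nop58, Nhp2, Nolc1, Ncl, Ddx21, Gnl3 and Npm1 rose, by 1.84 to 0.69 on the log2 scale, and Imp3 fell. The median change of the 43 was 0.48, against 0.03 for all tested genes, and 35 of them had a positive estimate. In 17 members all 3 injured controls were above all 3 uninjured ones (39.5%, against 19.1% of all tested genes), and in 3 all were below (17.5% of all tested genes). With scaling by library totals, which raised the median of all genes to 0.40, 17 members passed as higher and 0 as lower. Of all tested genes, 18.3% and 6.47% did so with that scaling. Without ctrl replicate 2 the count that rose was 4 of 43, where 8.28% of all tested genes rose, so the excess of members depended on that library. The count that fell was 0 without ctrl + CCl4 replicate 2, where 8.49% of all tested genes fell. It was 2 (Imp3 and Polr1c) without ctrl replicate 1 or 2, where 13.2% and 10% of all tested genes fell. DESeq2 called 8 higher and 1 lower, where it called 12.7% of all tested genes higher and 12.7% lower.

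In knockout hepatocytes fewer members passed the test of injury. In injured against uninjured knockouts 3 of the 43 rose and 0 fell by the same test, 6.98% and 0%, where 9.42% of all tested genes rose and 8.35% fell, 17.8% in all, so the share that rose was not above the background. The 3 were Gar1, Nop58 and Ebna1bp2, at 1.49, 1.18 and 1.06. At an unadjusted p under 0.05, 6 members were higher and 1 was lower, where 1727 and 1571 of all 10780 tested genes were. DESeq2 called 5 members higher and 0 lower, where it called 11.9% and 9.31% of all tested genes. The median change was 0.09, against 0.03 for all genes, with 30 positive estimates. This median was not stable: it ran from 0.05 (without Yap/Taz KO + CCl4 replicate 1) to 0.24 (without Yap/Taz KO replicate 2) with 1 library left out, among them 0.21 without Yap/Taz KO + CCl4 replicate 2 and 0.16 without Yap/Taz KO replicate 3. It was 0.32 with the score of other liver cells in the model, against -0.02 for all genes. In controls the median kept between 0.40 and 0.55 with 1 library left out and was 0.50 with the score. Members whose injured knockouts all lay above the uninjured ones numbered 10 (23.3%, against 21.2% of all genes), and 2 lay wholly below (18.1% of all genes). Library totals, which put the median of all genes at 0.40, gave 10 higher and 0 lower, where 16.8% and 3.77% of all tested genes passed. With the score of other liver cells in the model, only Nop58 passed as higher in knockouts, where 2.81% of all tested genes did. In controls 6 passed as higher and 0 as lower with the score, where 6.1% and 7.73% of all tested genes did. Of the 43, 1 member passed in both genotypes (Nop58), 2 in knockouts alone, 7 in controls alone and 33 in neither; whether the responses differ is a separate test, given further on.

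**Figure D1:**
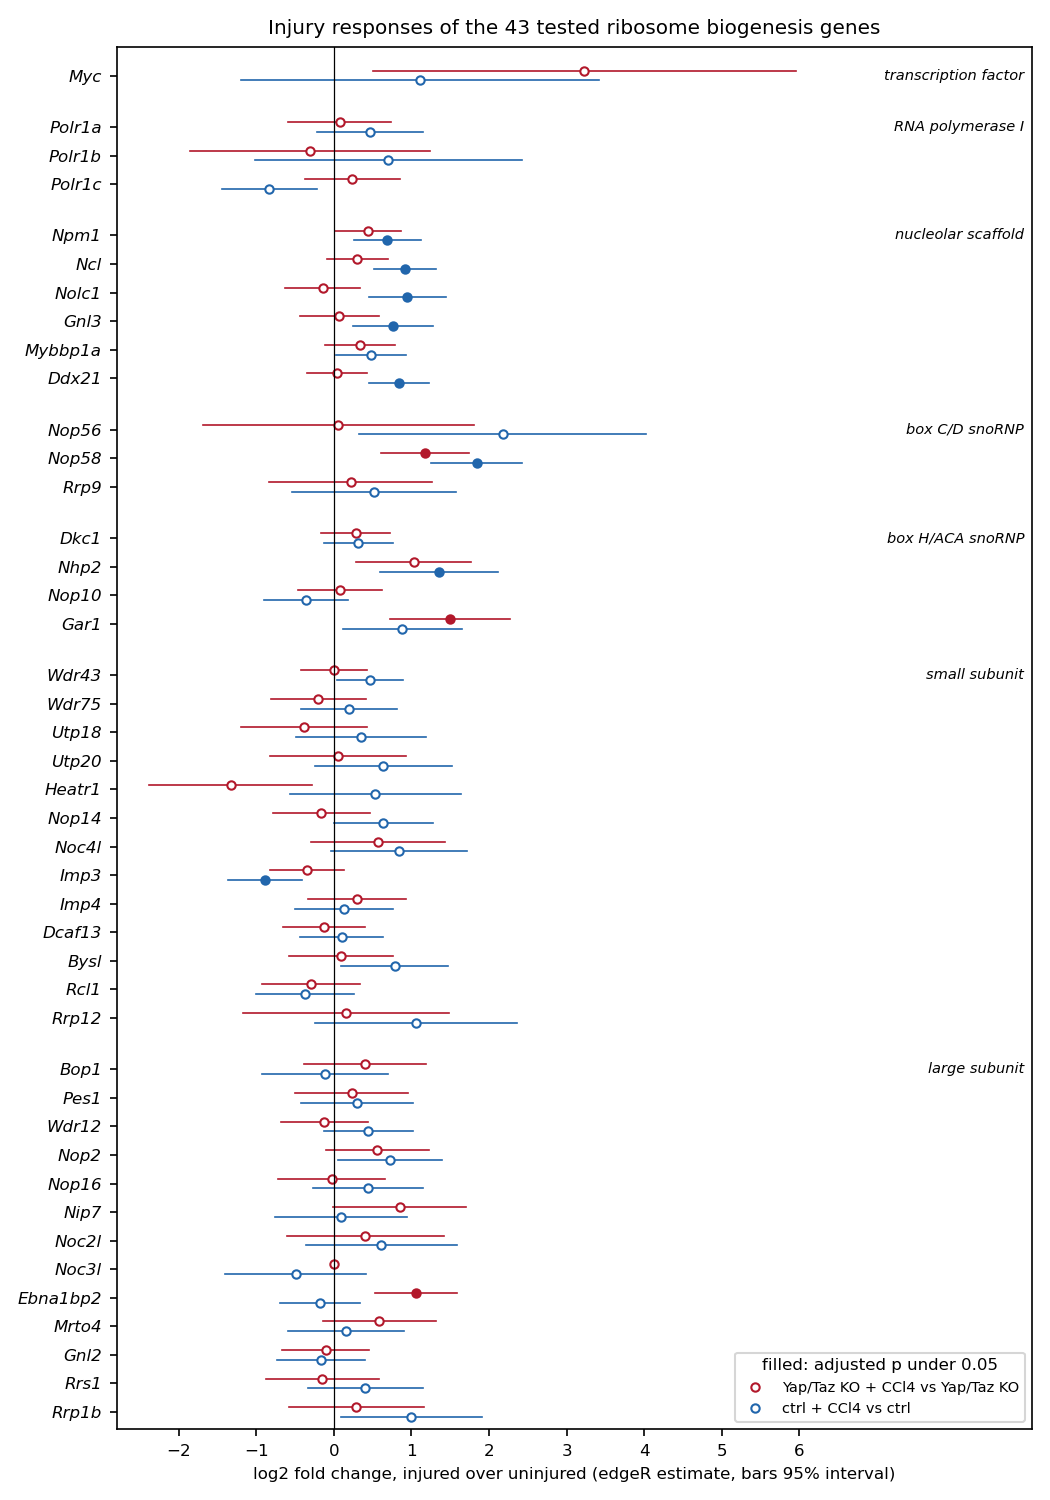
Log2 fold change (x axis, edgeR estimate) of the 43 tested members, grouped by role down the page, in injured over uninjured knockouts (red) and injured over uninjured controls (blue); bars are 95% intervals and filled points passed an adjusted p under 0.05. Filled blue points gather among the scaffold genes, where 5 of 6 passed, while the 3 filled red points are Nop58, Gar1 and Ebna1bp2. The interval of Noc3l in knockouts was left undrawn because its estimate was very close to 0 (2.53e-05).

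Myc was scarce at this depth, as 3′ tag counts of 6, 9 and 33 in injured and of 3, 0 and 0 in uninjured knockouts show. In controls it had 19, 14 and 3 counts in injured and 8, 0 and 3 counts in uninjured libraries. The summed counts of 48 and 3 in knockouts gave a ratio of 10.5 after scaling, with a 95% interval of 3.40 to 52.9 that covers counting error only. By edgeR the knockout difference had an adjusted p of 0.0969 and the control difference one of 0.508; the knockout difference passed with DESeq2 and without a filter on low counts. A count of 33 in 1 library supplied most of the injured knockout total, and the ranges of injured and uninjured controls overlapped.

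RNA polymerase I was represented by 3 subunit genes, none of which passed in either injury response by edgeR; at an unadjusted p under 0.05 there was 1, Polr1c, lower in injured controls, and DESeq2 called 0. Polr1a, the gene of the largest subunit, had 26.5, 23.1 and 24.8 CPM in injured knockouts, against 16.8, 24.6 and 29.0 CPM in uninjured knockouts, and 20.9, 24.1 and 22.9 CPM in injured controls, against 10.3, 15.6 and 24.2 CPM in uninjured controls. Polr1c, a subunit shared with RNA polymerase III, had 26.5, 25.3 and 24.2 CPM in injured knockouts, against 17.3, 26.5 and 20.4 CPM in uninjured knockouts, and 21.2, 15.3 and 20.3 CPM in injured controls, against 29.2, 25.7 and 46.9 CPM in uninjured controls. The injured controls were all below the uninjured ones for Polr1c, with an adjusted p of 0.0503 by edgeR that passed with the 5 CPM filter and without ctrl replicate 1 or 2, and the knockout ranges overlapped for both genes. Polr1b, of the second largest subunit, stayed under 6 CPM in every library.

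The scaffold group held 5 of the 7 members that rose in controls. It comprises nucleolin (Ncl), nucleophosmin (Npm1), the snoRNP chaperone Nolc1, nucleostemin (Gnl3), the RNA helicase Ddx21 and Mybbp1a, a nucleolar protein that binds transcription factors. In controls 5 of the 6 rose (83.3%, against 10.5% of all tested genes). Only Ncl, Ddx21 and Nolc1 of the group passed there without a filter on low counts or with the score of other liver cells. The same held in the fit of the 6 control libraries alone and without ctrl replicate 2 or ctrl + CCl4 replicate 3. For all 6 the 3 injured controls lay above the 3 uninjured ones (100%, against 19.1%). In knockouts 0 of 6 passed by edgeR (9.42% of all tested genes rose) or by DESeq2, and 1 (Npm1) had an unadjusted p under 0.05. Knockout ranges were apart in 3 of 6 (50%, against 21.2%). The role groups were drawn up with earlier results of these data known. The summed level of the 6 averaged 975 CPM in injured and 829 CPM in uninjured knockouts, and 1172 CPM in injured and 650 CPM in uninjured controls.

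Ncl, which coats precursor ribosomal RNA, had 541, 636 and 515 CPM in injured knockouts, against 430, 483 and 458 CPM in uninjured knockouts, and 720, 693 and 664 CPM in injured controls, against 380, 418 and 303 CPM in uninjured controls. Injured libraries were above uninjured ones in both genotypes, and every injured control was above every injured knockout. The control response was 0.92 ± 0.19 (adjusted p = 0.00271, edgeR with Benjamini-Hochberg adjustment) and the knockout response 0.30 ± 0.19 (adjusted p = 0.294). Ddx21, a helicase of RNA polymerase I transcription and early processing, had 143, 135 and 142 CPM in injured knockouts, against 125, 144 and 140.1 CPM in uninjured knockouts, and 171, 195 and 172 CPM in injured controls, against 91.7, 113 and 95.2 CPM in uninjured controls. The knockout groups overlapped and the control groups were apart, with uninjured knockouts above all uninjured controls and injured knockouts below all injured controls. Its control response was 0.84 ± 0.18 (adjusted p = 0.00397) and its knockout response 0.04 ± 0.18 (adjusted p = 0.919), by edgeR.

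Nolc1 had 46.1, 53.7 and 56.5 CPM in injured knockouts, against 47.7, 64.7 and 60.04 CPM in uninjured knockouts, and 57.5, 65.3 and 74.4 CPM in injured controls, against 25.5, 36.2 and 41.2 CPM in uninjured controls. Here too the knockout groups overlapped, and all 6 knockout libraries were above all 3 uninjured controls. The control response was 0.95 ± 0.23 (adjusted p = 0.00914) and the knockout response -0.14 ± 0.23 (adjusted p = 0.723), by edgeR. Gnl3 had 68.5, 60.03 and 55.9 CPM in injured knockouts, against 62.8, 74.3 and 38.8 CPM in uninjured knockouts, and 67.8, 61.6 and 77.0 CPM in injured controls, against 41.5, 43.3 and 37.0 CPM in uninjured controls. The control groups were apart and the knockout groups overlapped, with a knockout change of 0.07 ± 0.24. Its rise of 0.76 ± 0.24 in controls (adjusted p = 0.0349, edgeR) missed the threshold without replicate 1 or 3 of the injured or replicate 2 or 3 of the uninjured controls, with adjusted p from 0.00372 to 0.127 over all alternatives. Npm1 had 104, 94.2 and 106 CPM in injured knockouts, against 65.0, 84.9 and 74.5 CPM in uninjured knockouts, and 104, 109 and 107 CPM in injured controls, against 75.7, 51.8 and 71.1 CPM in uninjured controls. Injured libraries were above uninjured ones in both genotypes, by 0.69 ± 0.20 in controls (adjusted p = 0.0232) and 0.44 ± 0.20 in knockouts (adjusted p = 0.152, edgeR). The control call ended without ctrl replicate 2 or ctrl + CCl4 replicate 3, with adjusted p from 0.00263 to 0.11 over the alternatives. In controls neither Gnl3 nor Npm1 passed with the score of other liver cells in the model. Both also missed the threshold without a filter on low counts and in the fit of the 6 control libraries alone.

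**Figure D2:**
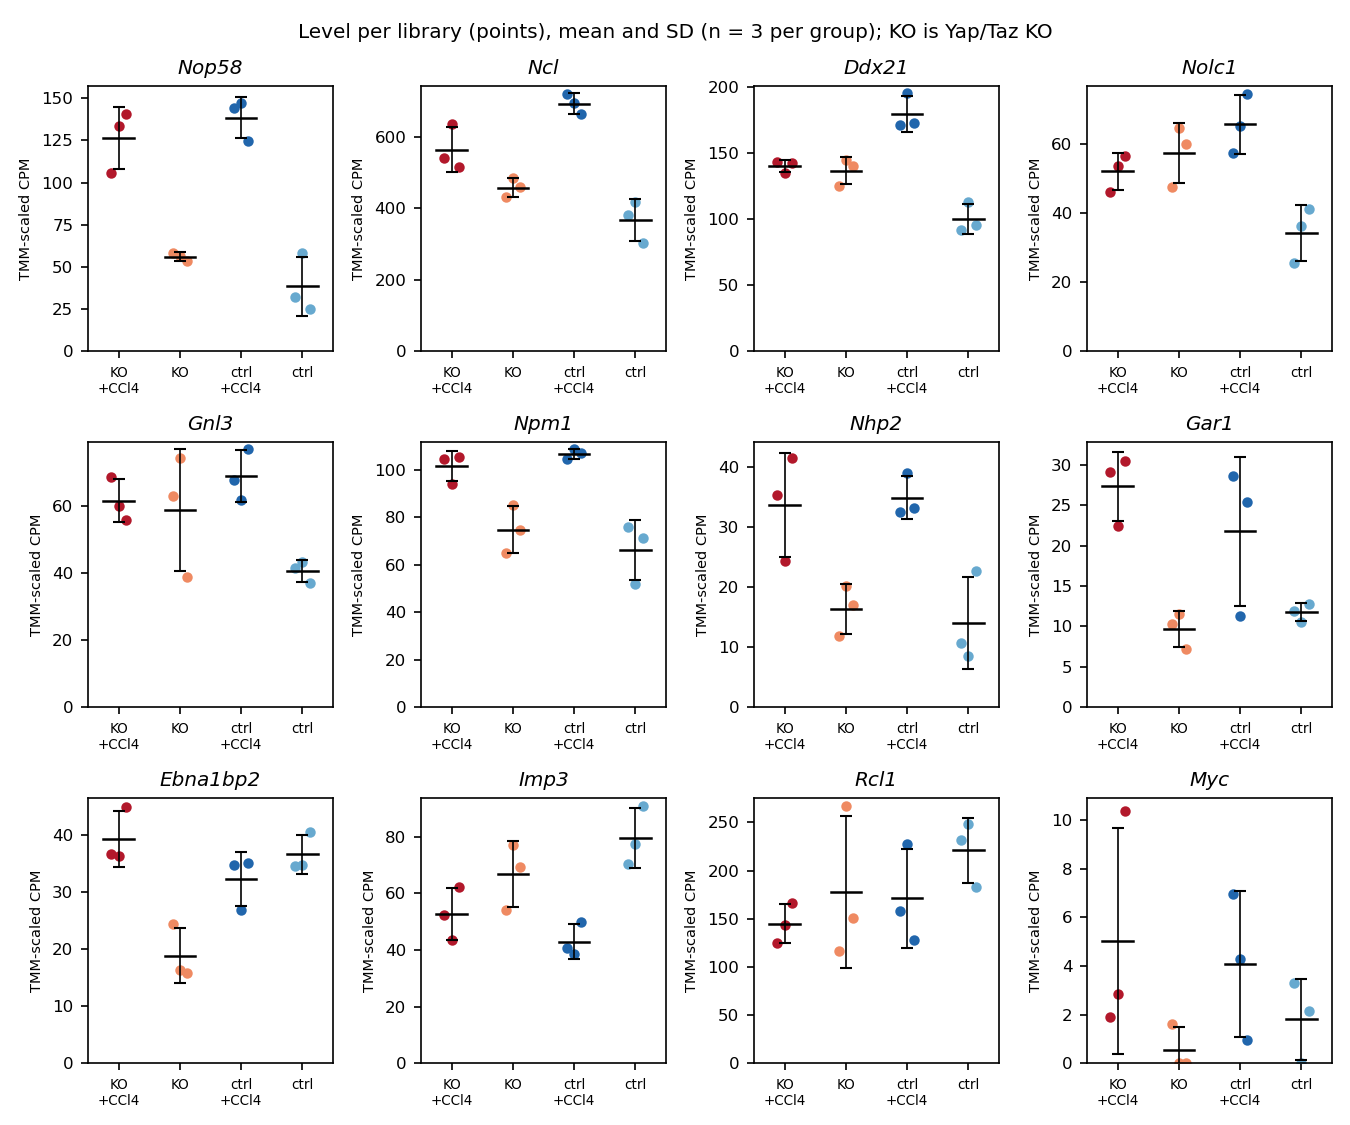
TMM-scaled CPM (y axis, from 0) of 12 members in each library of the 4 groups, shown as points with the mean and SD of 3 libraries. For Ddx21 and Nolc1 the injured and uninjured knockouts overlap while the injured controls lie above the uninjured ones, and for Nop58 the injured groups of both genotypes lie above the uninjured ones.

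Nop58, a core protein of box C/D snoRNPs, was the member that rose in both genotypes. It had 106, 134 and 140.4 CPM in injured knockouts, against 58.5, 56.5 and 53.2 CPM in uninjured knockouts, and 144, 147 and 124 CPM in injured controls, against 32.1, 58.4 and 24.9 CPM in uninjured controls. The lowest injured library of either genotype was thus above the highest uninjured one. The response was 1.18 ± 0.26 in knockouts (adjusted p = 0.00675) and 1.84 ± 0.27 in controls (adjusted p = 0.000244), by edgeR, and both calls held in each of 20 alternatives. Of its partners, Nop56 had 5.68, 3.16 and 6.59 CPM in injured knockouts, against 5.96, 8.69 and 0.426 CPM in uninjured knockouts, and 16.8, 8.54 and 7.41 CPM in injured controls, against 4.94, 1.51 and 0 CPM in uninjured controls; its control groups were apart, and it passed in neither response by edgeR but in controls by DESeq2. Rrp9, specific to the U3 particle, had 12, 4.42 and 12.6 CPM in injured knockouts, against 7.58, 9.65 and 7.67 CPM in uninjured knockouts, and 11.7, 13.4 and 8.38 CPM in injured controls, against 10.7, 9.06 and 2.84 CPM in uninjured controls, and its ranges overlapped in both genotypes. Fbl, the methyltransferase of these particles, was the member that could not be tested: its 3 libraries held 9 counts in all in injured and 8 in uninjured knockouts, and 5 in injured and 2 in uninjured controls.

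Among the box H/ACA proteins the rises fell on Nhp2 in controls and Gar1 in knockouts, while the pseudouridine synthase Dkc1 passed in neither. Nhp2 had 35.4, 24.3 and 41.5 CPM in injured knockouts, against 11.9, 20.3 and 17 CPM in uninjured knockouts, and 32.6, 39.0 and 33.2 CPM in injured controls, against 10.7, 8.56 and 22.7 CPM in uninjured controls. Its injured libraries were above its uninjured ones in both genotypes, by 1.03 ± 0.35 in knockouts (adjusted p = 0.0523) and 1.36 ± 0.36 in controls (adjusted p = 0.0132), by edgeR. The knockout value passed in 10 of 20 alternatives, and the control value missed the threshold without ctrl replicate 2 (adjusted p = 0.054 by edgeR, against 0.00178 to 0.054 over the alternatives). Gar1 had 29.0, 22.4 and 30.5 CPM in injured knockouts, against 10.3, 11.6 and 7.24 CPM in uninjured knockouts, and 28.6, 11.3 and 25.5 CPM in injured controls, against 11.9, 10.6 and 12.8 CPM in uninjured controls. The knockout groups were apart, with a rise of 1.49 ± 0.36 (adjusted p = 0.0105), and the control groups overlapped through replicate 2 of the injured controls, at 0.89 ± 0.36 (adjusted p = 0.0956, edgeR).

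The other 2 proteins of these particles changed less. Nop10 had 128, 85.9 and 152 CPM in injured knockouts, against 77.4, 142 and 126 CPM in uninjured knockouts, and 112, 102 and 119 CPM in injured controls, against 132, 138 and 159 CPM in uninjured controls. Dkc1 had 62.8, 59.1 and 71.9 CPM in injured knockouts, against 48.2, 51.1 and 60.04 CPM in uninjured knockouts, and 60.8, 72.6 and 49.6 CPM in injured controls, against 49.4, 49.8 and 47.6 CPM in uninjured controls. All injured controls were below all uninjured ones for Nop10, while the Dkc1 ranges overlapped in both genotypes, and neither gene passed by edgeR or DESeq2.

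Of the 13 small subunit factors, 1 passed in controls, downward, and 0 in knockouts by edgeR. That factor was Imp3, a protein of the U3 particle that pairs the snoRNA with the precursor. Imp3 had 52.4, 43.6 and 62.2 CPM in injured knockouts, against 54.1, 77.2 and 69.4 CPM in uninjured knockouts, and 40.7, 38.4 and 49.9 CPM in injured controls, against 70.3, 77.5 and 91.0 CPM in uninjured controls. The control groups were apart and the knockout groups overlapped, with changes of -0.88 ± 0.22 in controls (adjusted p = 0.0108) and -0.34 ± 0.22 in knockouts (adjusted p = 0.32, edgeR). The fall in controls did not pass with library totals, with the score of other liver cells in the model or without ctrl + CCl4 replicate 2 (adjusted p from 0.00452 to 0.147 over the alternatives, edgeR).

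At an unadjusted p under 0.05, 3 other small subunit factors were higher in injured controls and 1 was lower in injured knockouts. Of all 10780 tested genes, 1761 and 1571 were so at that level. DESeq2 called Imp3 in controls and 0 of the 13 in knockouts. Rcl1, a protein of the small subunit processome, had 125, 144 and 166 CPM in injured knockouts, against 116, 267 and 151 CPM in uninjured knockouts, and 158, 228 and 128 CPM in injured controls, against 231, 249 and 183 CPM in uninjured controls. Wdr43, of the complex that first binds the precursor, had 79.2, 66.3 and 85.7 CPM in injured knockouts, against 81.2, 63.7 and 86.0 CPM in uninjured knockouts, and 78.4, 88.8 and 79.9 CPM in injured controls, against 62.5, 62.4 and 54.0 CPM in uninjured controls. Rcl1 overlapped in both genotypes, while Wdr43 was higher in every injured control than in any uninjured one, and neither passed by edgeR. The median change of the 13 was -0.12 in knockouts and 0.46 in controls.

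Of the 13 large subunit factors, 1 rose in knockouts and 0 passed in controls by edgeR. At an unadjusted p under 0.05 the counts were 1 and 2, all higher, where 1727 and 1761 of all 10780 tested genes were higher. Ebna1bp2, whose yeast counterpart Ebp2 is needed for the large subunit, had 36.6, 36.3 and 44.9 CPM in injured knockouts, against 24.4, 16.4 and 15.8 CPM in uninjured knockouts, and 34.8, 26.8 and 35.1 CPM in injured controls, against 34.6, 34.7 and 40.5 CPM in uninjured controls. The 3 uninjured knockouts were the lowest libraries of the 12 for this gene. Its rise in knockouts was 1.06 ± 0.25 (adjusted p = 0.00836), while the change in controls was -0.18 ± 0.24 (adjusted p = 0.647), by edgeR. With the score of other liver cells in the model the knockout changes of Ebna1bp2 and Gar1 had adjusted p of 0.0957 and 0.108. Gnl2, a GTPase of late large subunit assembly in yeast, had 41.0, 43.6 and 41.8 CPM in injured knockouts, against 37.9, 47.8 and 50.3 CPM in uninjured knockouts, and 29.7, 39.7 and 26.1 CPM in injured controls, against 24.3, 47.8 and 35.5 CPM in uninjured controls, overlapping in both genotypes.

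No member passed a test of the knockout itself. In uninjured knockouts against uninjured controls 0 of the 43 passed by edgeR (0% of all tested genes did), and at an unadjusted p under 0.05 there were 4 higher and 2 lower. At that level 438 of all 10780 tested genes were higher and 582 lower. In injured knockouts against injured controls 0 passed (0% of all tested genes), with 0 at an unadjusted p under 0.05, where 439 of all tested genes were higher and 174 lower. DESeq2 called 0 members in either contrast. Of all tested genes it called 0.213% higher and 0.186% lower without injury, and 0.121% and 0.0371% after it. The median was 0.18 without injury, against -0.03 for all genes, and -0.10 after injury, against -0.01 for all genes. With 1 library left out the first ran from 0.13 to 0.31 (without ctrl replicate 2) and the second from -0.16 (without Yap/Taz KO + CCl4 replicate 3) to 0.02 (without Yap/Taz KO + CCl4 replicate 2). Library totals put them at 0.04 and -0.23, against -0.17 and -0.15 for all genes. In 8 members (18.6%, against 5.81% of all tested genes) all uninjured knockouts were above all uninjured controls, and in 1 below (4.92%). After injury 4 (9.3%, against 8.5%) were wholly above and 7 wholly below (7.81%). All 6 scaffold genes had positive estimates without injury and all 6 negative ones after it; the first count was 5 of 6 with library totals or without Yap/Taz KO replicate 3, and the second was 5 of 6 without ctrl + CCl4 replicate 2.

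**Figure D3:**
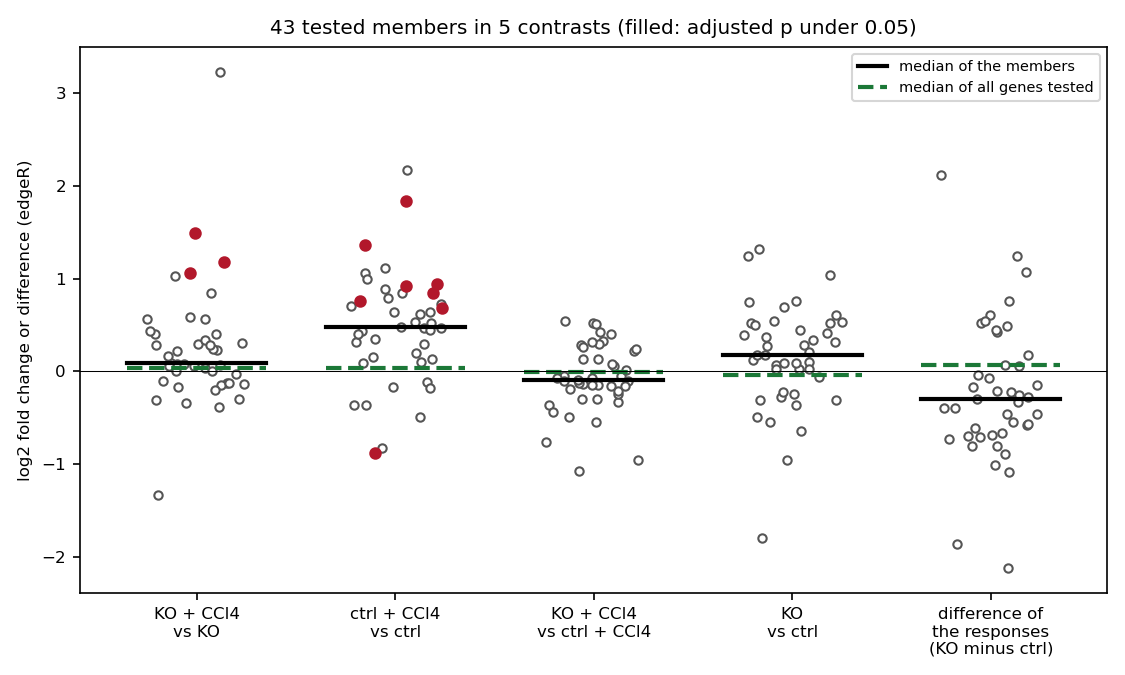
Log2 fold changes (y axis) of the 43 tested members in 4 contrasts and in the difference between the injury responses of knockouts and controls, with the median of the members (black line) and of all tested genes (green dashes); filled points passed an adjusted p under 0.05. The members' median is 0.09 in the response of knockouts (0.05 to 0.24 with 1 library left out) and 0.48 in that of controls (0.40 to 0.55), and no point is filled in the last 3 columns.

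The difference between the 2 injury responses was tested directly, as the knockout response minus the control response. By edgeR 0 of the 43 members passed (0% of all tested genes did), with 2 higher and 4 lower at an unadjusted p under 0.05. At that level 489 of all 10780 tested genes were higher and 385 lower. DESeq2 called 0 members, where it called 0.0835% of all tested genes higher and 0.0278% lower. The responses of single members are therefore not shown to differ between genotypes. The estimates leaned to one side, 13 positive and 30 negative with a median of -0.30, where 5815 of all tested genes were positive, 4965 negative and the median was 0.07. Leaving out each library in turn moved the members' median between -0.40 and -0.20. This difference is built from the same 4 groups as the contrasts above, so its signs are not separate evidence.

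The largest negative difference among the members that changed was that of Nolc1, at -1.09 (95% interval -1.78 to -0.39), followed by Ddx21 at -0.81 (-1.35 to -0.26), Gnl3 at -0.69, Nop58 at -0.66 and Ncl at -0.61 (-1.17 to -0.05). Nhp2 was at -0.33 and Npm1 at -0.25. Positive differences stood at 1.24 for Ebna1bp2 (0.51 to 1.98), 0.61 for Gar1 and 0.54 for Imp3. The smallest adjusted p among the 43 was 0.533, by edgeR, and the intervals are not adjusted for the number of genes. All 6 scaffold genes were negative, in the fit reported and in each alternative run, with a median of -0.65.

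The rest of the pathway was read from a list of other ribosome biogenesis genes, 113 of them in the table and 107 tested. In controls 12 of the 107 rose and 0 fell by edgeR (11.2% and 0%, against 10.5% and 12% of all tested genes), so the share that rose was about the background, with 1 lower at an unadjusted p under 0.05. In knockouts 1 rose and 0 fell (0.935% and 0%, against 9.42% and 8.35% of all tested genes), with 3 lower at an unadjusted p under 0.05. DESeq2 called 4 higher in knockouts and 13 in controls, and 0 lower in either. Of all tested genes it called 11.9% higher in knockouts and 12.7% in controls. Their median change was 0.13 in knockouts and 0.42 in controls. The gene called in both was Eif6, which keeps the large subunit from joining too early, at 0.70 ± 0.21 in knockouts (adjusted p = 0.0321) and 0.94 ± 0.21 in controls (adjusted p = 0.00525, edgeR). The knockout call was lost in 7 of 20 alternatives, among them the removal of any knockout library other than Yap/Taz KO replicate 2, and adjusted p over the alternatives ran from 0.00301 to 0.138. With the score of other liver cells in the model it was 0.118 by edgeR. Utp14a, a small subunit processome protein, averaged 17.6 ± 3.42 CPM in injured and 20.7 ± 4.52 CPM in uninjured knockouts, and 21.3 ± 0.392 CPM in injured and 9.75 ± 2.02 CPM in uninjured controls (SD, n = 3 each). Its rise in controls was 1.12 ± 0.31 (adjusted p = 0.0166, edgeR; 0.0575 in a fit of the 6 control libraries alone), and all 3 uninjured controls were below the other 9 libraries. In the difference between responses 0 of the 107 passed by edgeR or DESeq2, and their median was -0.26. At an unadjusted p under 0.05, 2 were higher and 8 lower, where 489 and 385 of all 10780 tested genes were.

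Other lists tied to the nucleolus were counted in the same way. Of 79 cytosolic ribosomal protein genes in the table, the structural products of the pathway, only 56 had enough counts to be tested, so the family was read in part. Of these 56, 12 rose in knockouts and 4 in controls by edgeR. That is 21.4% in knockouts, against 9.42% of all tested genes, and 7.14% in controls, against 10.5%. None fell, with 0 lower at an unadjusted p under 0.05 and 0 by DESeq2, and the medians were 0.66 in knockouts and 0.17 in controls. Their median in the difference of responses was 0.46, opposite in sign to that of the members, and 0 passed there by edgeR or DESeq2. At an unadjusted p under 0.05, 5 were higher and 0 lower there, where 489 and 385 of all 10780 tested genes were. Of 7 tested host genes of small nucleolar RNAs, 1 fell in knockouts (14.3%, against 8.35% of all tested genes) and 2 in controls (28.6%, against 12%). Gas5, a host whose spliced transcript is decayed through translation, averaged 85.5 ± 13.5 CPM in injured and 129 ± 19.0 CPM in uninjured knockouts, and 87.6 ± 5.36 CPM in injured and 169.8 ± 11.1 CPM in uninjured controls (SD, n = 3 each). The control fall of 0.95 on the log2 scale (adjusted p = 0.00299) held in 20 of 20 alternatives, and the knockout fall of 0.60 (adjusted p = 0.0482, edgeR) was lost in 14 of 20, with an adjusted p of 0.385 with the score of other liver cells and 0.476 with library totals.

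Partners and targets of MYC were listed as well. Of 11 tested genes of the MYC network, 1 rose and 3 fell in knockouts, and 1 rose and 2 fell in controls. The 9.09% that rose in each was about the background of 9.42% and 10.5%. Those that fell made up 27.3% in knockouts, against 8.35% of all tested genes, and 18.2% in controls, against 12%. Mxd3, a partner of MAX linked to proliferating cells, had 90 counts in injured and 0 in uninjured knockouts, at least 19.8-fold higher against a floor of 3 counts over the group. In controls it had 93 counts in injured and 4 in uninjured libraries. Of 20 tested MYC targets outside the nucleolus, 5 rose and 0 fell in knockouts (25%, against 9.42% of all tested genes), and 3 rose and 1 fell in controls (15%, against 10.5%). Ldha, of lactate formation, rose by 1.48 ± 0.24 in knockouts and 0.95 ± 0.23 in controls (adjusted p = 0.000626 and 0.00922, edgeR), and Srm, of spermidine synthesis, rose by 1.54 ± 0.26 in controls (adjusted p = 0.000624).

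**Figure D4:**
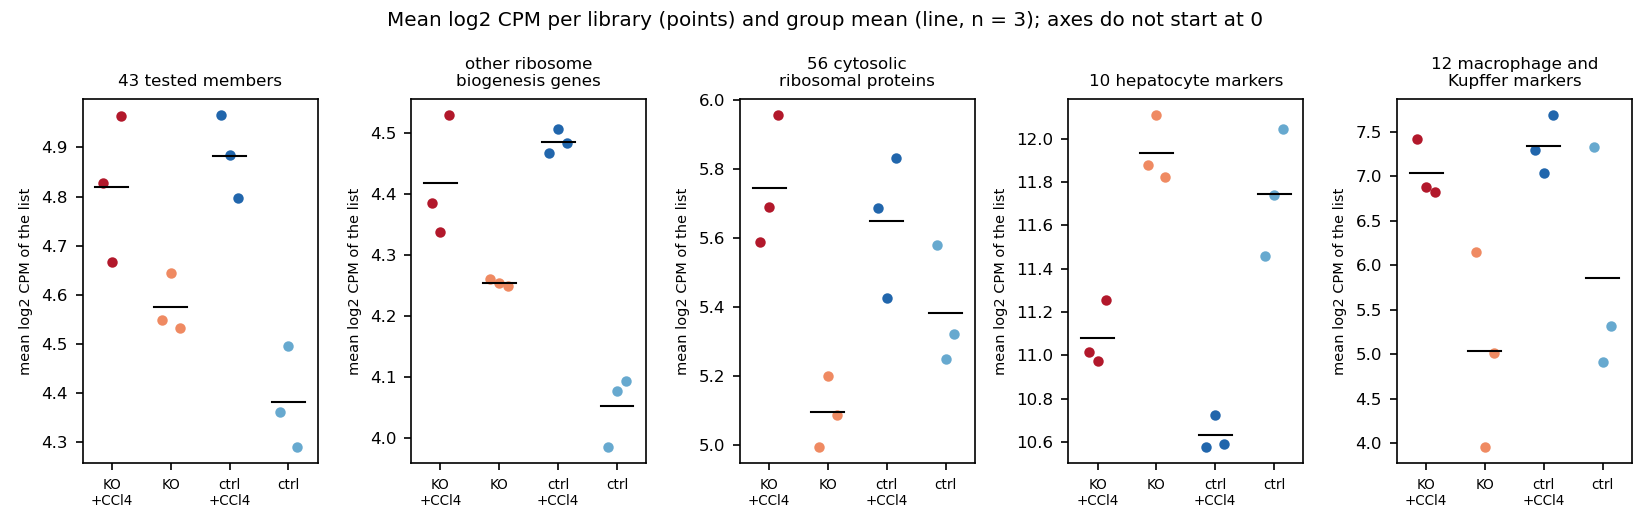
Mean log2 CPM over the tested genes of 5 lists in each library (points) with the mean of 3 libraries (line); the y axes do not start at 0. The members and the other ribosome biogenesis genes are lowest in uninjured controls, the ribosomal proteins are lowest in uninjured knockouts, and hepatocyte and macrophage markers move in opposite directions with injury.

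The plot of list levels by library shows where the groups differ. The members' mean log2 CPM averaged 4.82 in injured and 4.58 in uninjured knockouts, and 4.88 in injured and 4.38 in uninjured controls. The other ribosome biogenesis genes averaged 4.42 in injured and 4.25 in uninjured knockouts, and 4.49 in injured and 4.05 in uninjured controls, and the ribosomal proteins 5.74 in injured and 5.09 in uninjured knockouts, and 5.65 in injured and 5.38 in uninjured controls.

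By the GENCODE annotation of GRCm38 the members are spread over 17 chromosomes, and 6 of them carry 19 small nucleolar RNA genes within their bounds on the same strand: Ncl, Gnl3, Nop56, Nop58, Dkc1 and Wdr43. Of the 10 members that changed in an injury response, 3 were such hosts (Ncl, Gnl3 and Nop58). In GRCm38, Nop58 lies on chromosome 1 from 59684971 to 59719044 with 4 of these genes inside, among them Snord11 and Snord70. Ncl lies on the same chromosome, minus strand, from 86344719 to 86359400 with 3, among them Snora75 and Snord82. Polyadenylated 3′ tags count the host transcript, and the small RNAs themselves were not measured here. The last 1000 bases of 10 members hold exons of a gene on the opposite strand, among them Rmnd5b at Nhp2. No source used here says whether counting used strand, and for these 10 the reads of both genes cannot be told apart. Mrto4 has named pseudogenes, and its counts are uncertain for that reason. Only pseudogenes whose symbol is the gene name followed by -ps were sought. Those under other names were not checked for any member.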

How the data were processed

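The authors deposited a table of gene counts with 1 column per library, and it held no normalised values. Per the labels' protocols, 3′ libraries (QuantSeq FWD, Lexogen) were made from polyadenylated RNA, so a gene's count does not depend on its length. The submitters' processing notes name STAR 2.6.1d, FastQC, cutadapt and mm10; the counting tool, strand setting and annotation are not named in the sources used here. Library totals ranged from 1617761 to 3028951 counts.

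From these counts, genes were kept by edgeR's filterByExpr (minimum count 10, total 15), scaled by TMM and fitted over all 12 libraries in 1 quasi-likelihood model with 1 mean per group (edgeR 4.0.16, R 4.3.3), giving 5 contrasts. P-values were adjusted over the 10780 tested genes by Benjamini-Hochberg, with a threshold of 0.05, and intervals are 95% and unadjusted. The fit was tested on simulated data, where edgeR recovered few of the genes given the smaller change. A larger share of DESeq2's calls than of edgeR's was false there. Those data were drawn with edgeR's own estimates of spread and held fewer changed genes than were called here, so they cannot rank the tools. DESeq2 counts are given for comparison only. Promoter windows came from RefSeq on GRCm38.p6, and gene positions from the GRCm38 annotation. Members, role groups, gene lists, motifs and tests were chosen with earlier results of these data known. Members named with values were Myc, the 2 most abundant of each role and those past the threshold in an injury response, and up to 3 called genes per list by adjusted p; Nop56, Fbl and Polr1b were added after their values were seen. Alternatives were other scalings (RLE, library totals), other filters (none, or 5 CPM in 3 samples), DESeq2 1.42.0, a replicate block, a 6-library fit, a marker score as covariate and the removal of each library. Intervals on counts cover counting error only.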

Additional observations from a re-analysis of the deposited data

How the results depend on the processing

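Alternatives moved the counts of members more than the leading genes. In injured knockouts, members that rose numbered 10 with library totals and 5 without a filter on low counts. They numbered 5 with DESeq2 and 1 with the marker score as covariate, against 3 as reported. Of all tested genes, 16.8%, 6.66%, 11.9% and 2.81% rose in those settings, in that order. When 1 library was left out, 3 to 4 members and 5.62% to 11.6% of all tested genes rose. In the fit of the 6 libraries compared 1 member fell, where 10.8% of all tested genes did. In injured controls, members that rose numbered 17 with library totals, against 7 as reported, and 4 (without ctrl replicate 2) to 9 (without ctrl replicate 1) with 1 library left out. Of all tested genes, 18.3% rose with library totals, 8.28% without ctrl replicate 2 and 15.4% without ctrl replicate 1. Those that fell numbered 0 with library totals, 2 with the 5 CPM filter and 0 with the covariate, and 0 (without ctrl + CCl4 replicate 2) to 2 (without ctrl replicate 1 or 2) with 1 left out. Of all tested genes, 6.47% fell with library totals, 12.6% with the 5 CPM filter and 7.73% with the covariate. The share was 8.49% without ctrl + CCl4 replicate 2, 13.2% without ctrl replicate 1 and 10% without ctrl replicate 2. For the causes of these differences nothing was tested. Library totals gave 1814 higher and 406 lower genes in knockouts, against 1016 and 900, and 1974 and 698 in controls, against 1137 and 1290. The covariate gave 303 higher and 362 lower genes in knockouts, and 658 and 833 in controls. Ncl, Ddx21, Nolc1 and Nop58 in controls and Nop58 in knockouts passed in all 20 alternatives. Signs turned for estimates that had not passed: Ebna1bp2 in controls (0.21 with library totals) and, in knockouts, Nolc1 (0.23 with library totals and with the covariate), Imp3 (0.0294 with library totals), Ddx21 (-0.0247 without Yap/Taz KO replicate 1, up to 0.0761 with another library left out and 0.41 over all alternatives) and Gnl3 (-0.16 without Yap/Taz KO replicate 3, -0.01 without Yap/Taz KO + CCl4 replicate 1, up to 0.28 with another library left out and 0.47 over all alternatives); the cause was not tested. The median of the members in injured knockouts against injured controls was 0.02 without Yap/Taz KO + CCl4 replicate 2. Fold changes were also computed for 19 members in all 5 contrasts, 95 values of which 11 passed. Of 1869 values under alternatives, 54 turned sign, in 27 of the 95 and 0 of the 11; the limit to fold changes printed above was set after the data were seen. Deviations correlated by over 0.1 in 7 of 18 same-numbered pairs (range -0.152 to 0.323) and in 7 of 36 differently numbered ones (-0.354 to 0.273). The numbers were not taken as pairs because not every same-numbered pair passed 0.1 and no label ties them. With the replicate block 4 members rose and 0 fell in knockouts, where 10.2% and 9.22% of all tested genes did. In controls 7 rose and 1 fell with the block, where 11.6% and 12.5% of all tested genes did. With 3 libraries a group and at most 3028951 counts each, a missed threshold does not show that a gene was unchanged, and Myc, Fbl and Nop56 were too scarce for narrow estimates.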
